A study of Mus musculus with 6 samples.

Results

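The genes examined here are 38 interferon-induced genes, taken from a list of well-known members of the interferon response and matched by symbol to their Ensembl identifiers in GENCODE M21 on GRCm38. Of the 38, 37 had a row in the count table and all 37 passed the low-count filter, and *Gbp5* had no matched row and was not analysed here. By role, the list holds 5 regulators and modifiers, 4 RNA sensors, 12 antiviral effectors, 8 GTPases, 3 antigen processing genes and 6 other interferon-induced genes.

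Interferons are secreted proteins made by cells that sense viral or misplaced nucleic acid. Type I interferons signal through the receptor IFNAR to a complex that holds STAT2 and IRF9 and binds interferon-stimulated response elements (ISRE) beside its target genes, whereas interferon gamma signals through IFNGR and acts on gamma-activated sites (GAS). The genes switched on encode proteins that detect viral RNA, block viral replication, process antigens for MHC class I and damp the signal again. In skin, keratinocytes and resident immune cells both make and answer interferons.

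Dorsal neck skin of 6 female littermate mice was sequenced at postnatal day 33, 3 of them wild type and 3 carrying the YAP2-5SA-∆C transgene, hereafter called transgenic. YAP is the transcriptional effector of the Hippo pathway. The transgene drives an activated YAP with a mild gain of function in the Keratin5/14 compartment, the basal layer of the epidermis. The biopsies were whole skin, so they held dermis, hair follicles and immune cells beside the keratinocytes in which the transgene is expressed, and fewer cells of a type cannot be told apart from less RNA per cell in any value below.

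Total counts ranged from 11225705 to 19505036 per library, and 17.2% to 20.4% of them fell on mitochondrial ribosomal RNA. Over the 6 libraries 15102 of 26579 genes were tested. Skin markers were present in every library, with summed CPM (TMM-scaled counts per 1000000) of 3392 to 7156 for 6 basal keratinocyte genes. Endogenous *Yap1*, whose mouse counts may or may not include reads of the transgene, averaged 131 ± 9.45 CPM in wild type and 136 ± 7.31 CPM in transgenic skin (SD, n = 3 each; edgeR quasi-likelihood FDR 0.635), so it does not check the labels. Transgenic replicate 2 stood apart, with a summed 908 CPM of 8 hair shaft and inner root sheath genes against up to 5454 in the other transgenic libraries and 8580 to 11077 in wild type. The study describes 3 mice per genotype, and no batch is given.

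As a group, the interferon-induced genes lay slightly higher in transgenic than in wild type skin, and few of them passed a test singly. The members and the lists below were chosen with earlier results of these data known. Each comparison of a list with all tested genes is therefore a description. Of the 37 tested genes, 35 had a log2 fold change above 0, against 47.6% of all tested genes, and their median log2 fold change was 0.34, against -0.01 over all tested genes. At a false discovery rate (FDR) below 0.05, quasi-likelihood in edgeR called 1 of the 37 (2.7%) higher, the immunoproteasome subunit *Psmb8*, and 0 were lower. Over all tested genes 1.44% were called higher in that test. At an unadjusted *P* below 0.05 in the same test 11 of the 37 (29.7%) were higher and 0 lower, beside 13.3% of all tested genes called higher.

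The test named in the study's methods, edgeR's likelihood-ratio test, called 6 of the 37 (16.2%) higher and 0 lower at the same FDR, beside 5.52% of all tested genes. The 6 were *Irf1*, *Trim25*, *Oas3*, *Psmb8*, *Psmb9* and *Tap1*. Voom called 1 of the 37 higher, *Psmb8* (1.23% of all tested genes). DESeq2 called 5 (6.34%), *Irf1*, *Trim25*, *Psmb8*, *Tap1* and *Parp14*, and not *Oas3* or *Psmb9*. All 3 CPM values of transgenic skin lay above all 3 of wild type skin for 13 of the 37 (35.1%), beside 15.5% of all tested genes, and 0 of the 37 were separated in the other direction, beside 18.2%.

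**Figure D1:**
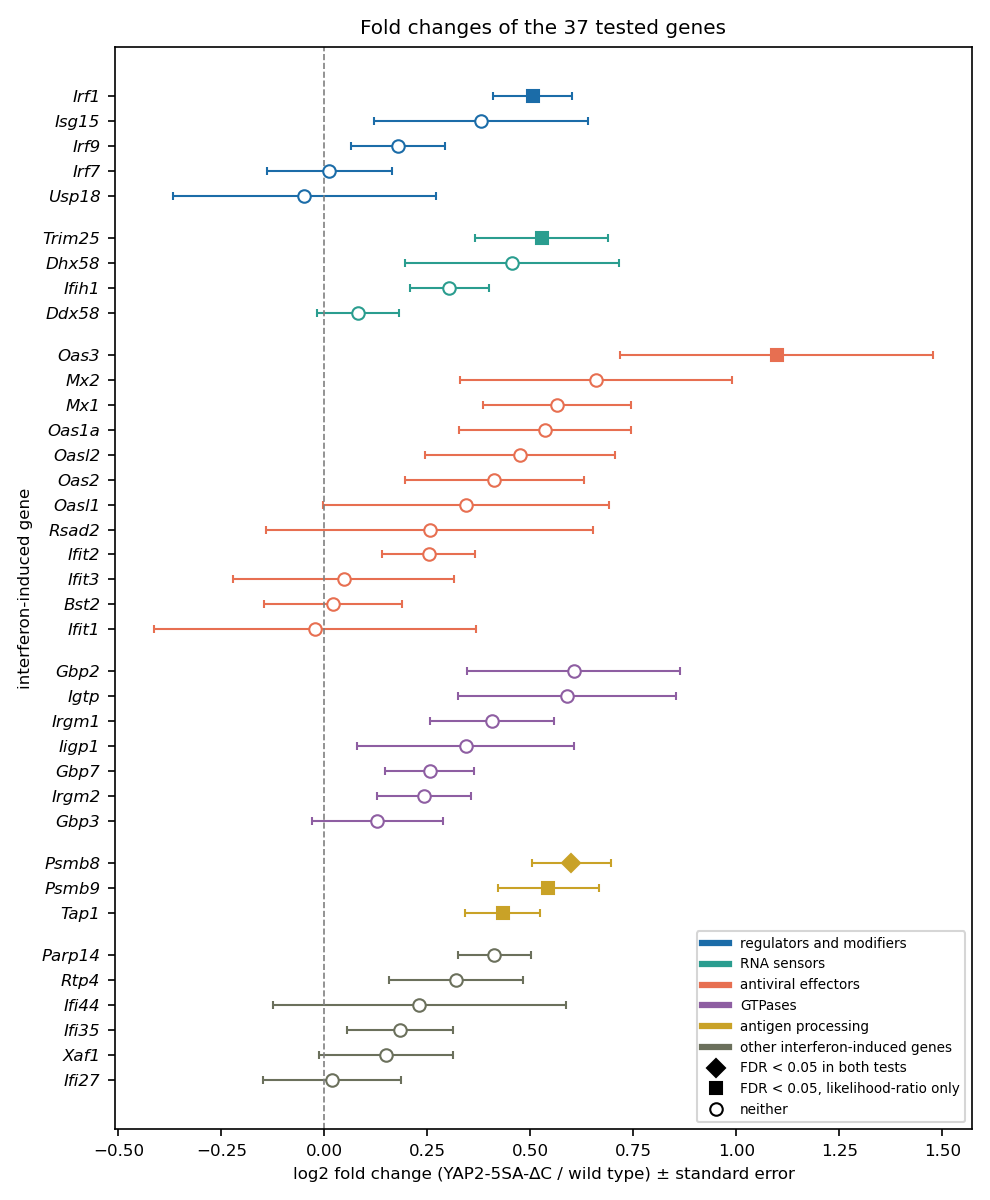
Log2 fold change (x axis, YAP2-5SA-∆C over wild type, with the standard error, SE, as bars) of the 37 tested interferon-induced genes, grouped and coloured by role, with filled diamonds for an FDR below 0.05 in both edgeR tests, filled squares for the likelihood-ratio test alone and open circles for neither. Of the 37 points, 35 lie right of 0, from *Usp18* at -0.05 to *Oas3* at 1.10, and the 3 antigen processing genes have narrow bars.

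Single libraries carried part of this. Transgenic replicates 1 and 3 each held the highest value of 15 genes, transgenic replicate 2 of 5, wild type replicate 3 of 2 and the other wild type libraries of 0. Among the transgenic libraries, replicate 2 was the lowest for 24 of the 37 genes. Relative to the wild type mean, the median log2 level of the 37 genes was -0.12, 0.12 and 0.02 in the wild type libraries, in the order of their numbers, and 0.41, 0.14 and 0.39 in the transgenic ones. On this scale transgenic replicate 2 was close to wild type replicate 2, although the genotypes did not overlap. Without transgenic replicate 2 the quasi-likelihood test called 3 genes higher (*Irf1*, *Psmb8* and *Parp14*), the likelihood-ratio test called 12, and 24 of the 37 did not overlap, beside 2.72%, 4.71% and 17.8% of all tested genes. Without any one of the other 5 libraries the quasi-likelihood test called 0 of the 37, with 9 to 12 at an unadjusted *P* below 0.05, beside 0.822% of all tested genes called higher without replicate 1 of wild type, 0.489% without replicate 1 of the transgenic group and 0% without the others. The likelihood-ratio test called 4, 0 and 1 when replicates 1, 2 and 3 of wild type were left out (the 0 with 15 at an unadjusted *P* below 0.05) and 2 and 3 when replicates 1 and 3 of the transgenic group were. Over all tested genes the likelihood-ratio test then called 5.64%, 2.26% and 3.01% higher without replicates 1, 2 and 3 of wild type and 4.96% and 4.68% without replicates 1 and 3 of the transgenic group. The quasi-likelihood test called 0 genes of any kind without replicate 2 or 3 of wild type or replicate 3 of the transgenic group (2725, 2844 and 3692 at an unadjusted *P* below 0.05), so the loss of calls there was not limited to the interferon-induced genes. The likelihood-ratio call of *Psmb8* was lost without wild type replicate 2 or 3, that of *Irf1* without either of these or transgenic replicate 1 or 3, that of *Psmb9* without any library but transgenic replicate 2 and that of *Tap1* without any but wild type replicate 1.

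**Figure D2:**
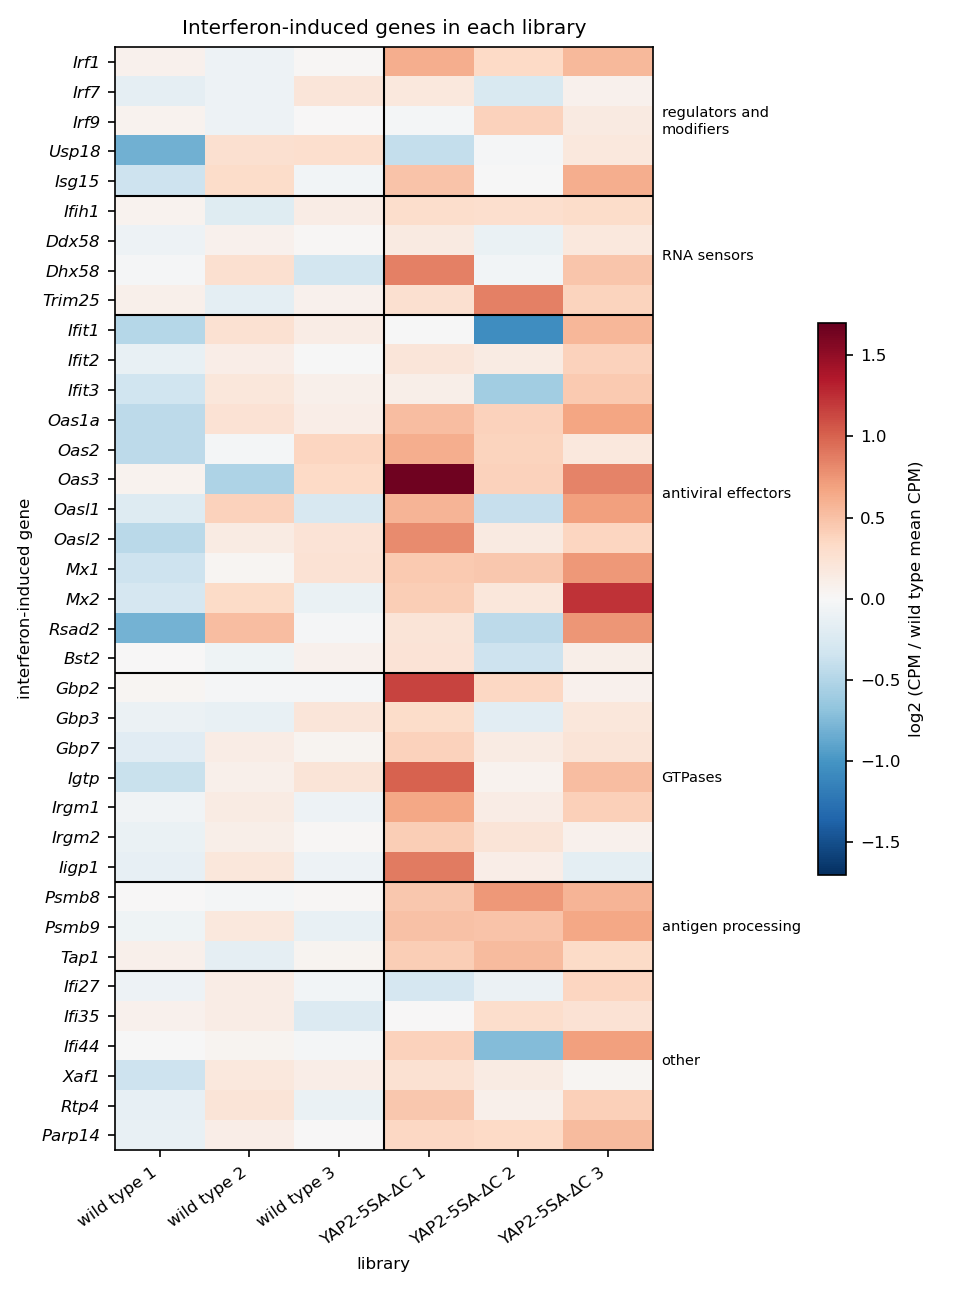
Log2 of each library's CPM over the wild type mean CPM (colour, red higher and blue lower) for 37 interferon-induced genes (rows, by role) in 3 wild type and 3 transgenic libraries (columns). Transgenic replicates 1 and 3 are mostly red, and replicate 2 is the lowest of the transgenic libraries in 24 of 37 rows.

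Since interferon signals reach many of their target genes through ISRE and GAS elements, the promoter windows of RefSeq (GRCm38.p6, 250 bases before to 50 after each annotated start) were searched on both strands for the ISRE core GAAANNGAAA and the GAS core TTCNNNGAA, in which N is any base. The matches of both motifs may overlap. A window was given for 28 of the 37 tested genes, and not for *Usp18*, *Dhx58*, *Oas2*, *Mx1*, *Mx2*, *Iigp1*, *Ifi27*, *Rtp4* and *Parp14*. The ISRE core was found in 15 of the 28 genes (53.6%), against 3.99% of 27025 genes with a window, and the GAS core in 9 (32.1%), against 9.55%. Both were found in 5 genes and neither in 9. By role the ISRE core was in 6 of 6 GTPase genes, 6 of 9 antiviral effectors, 2 of 3 RNA sensors, 1 of 4 regulators and 0 of 3 antigen processing genes. A match is a description of these letters, and no binding was measured here.

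All 3 antigen processing genes were higher in each transgenic library than in any wild type library. *Psmb8* and *Psmb9* encode catalytic subunits of the immunoproteasome, which cuts proteins into peptides for MHC class I, and *Tap1* encodes a chain of the transporter that carries those peptides into the endoplasmic reticulum. All 3 passed the likelihood-ratio test. In the transgenic libraries their median log2 level over the wild type mean was 0.46, 0.54 and 0.58, so that replicate 2, low for most other members, was not low here.

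*Psmb8* (ENSMUSG00000024338, chr17:34197721-34201454, + strand) had 11.8, 11.5 and 11.9 CPM in wild type replicates 1, 2 and 3 and 16.1, 19.6 and 17.6 CPM in transgenic replicates 1, 2 and 3. Every transgenic library was above every wild type library, and the wild type values were almost equal. It rose from 11.7 ± 0.201 to 17.8 ± 1.76 CPM (SD, n = 3 each), or by 0.60 on the log2 scale (standard error, SE, 0.10; edgeR FDR 0.0420 in the quasi-likelihood and 0.00591 in the likelihood-ratio test). The call in the quasi-likelihood test was lost without any one library other than transgenic replicate 2, with an FDR of 0.0536 to 0.186, while its size on the log2 scale was 0.54 to 0.69.

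For *Psmb9* (ENSMUSG00000096727, chr17:34181987-34187764, - strand) the wild type libraries had 5.49, 6.53 and 5.32 CPM and the transgenic libraries 8.16, 8.10 and 9.09 CPM, in the order of their replicate numbers. All values of the transgenic group were above the wild type values (log2 fold change 0.54, SE 0.12, FDR 0.0620 in edgeR's quasi-likelihood and 0.0411 in its likelihood-ratio test). *Tap1* (ENSMUSG00000037321, chr17:34187553-34197225, + strand) had 35.2, 29.7 and 34.1 CPM in wild type and 44.2, 47.9 and 41.4 CPM in transgenic skin, again without overlap (log2 fold change 0.43, SE 0.09, edgeR FDR 0.0566 with quasi-likelihood and 0.0466 with the likelihood ratio). The 3 genes are neighbours in the MHC region of chromosome 17. *Psmb9* and *Tap1* lie head to head and share exonic bases on opposite strands, and *Psmb8* shares exonic bases with Gm20496, so their counts are uncertain to the extent that reads were split or dropped there.

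**Figure D3:**
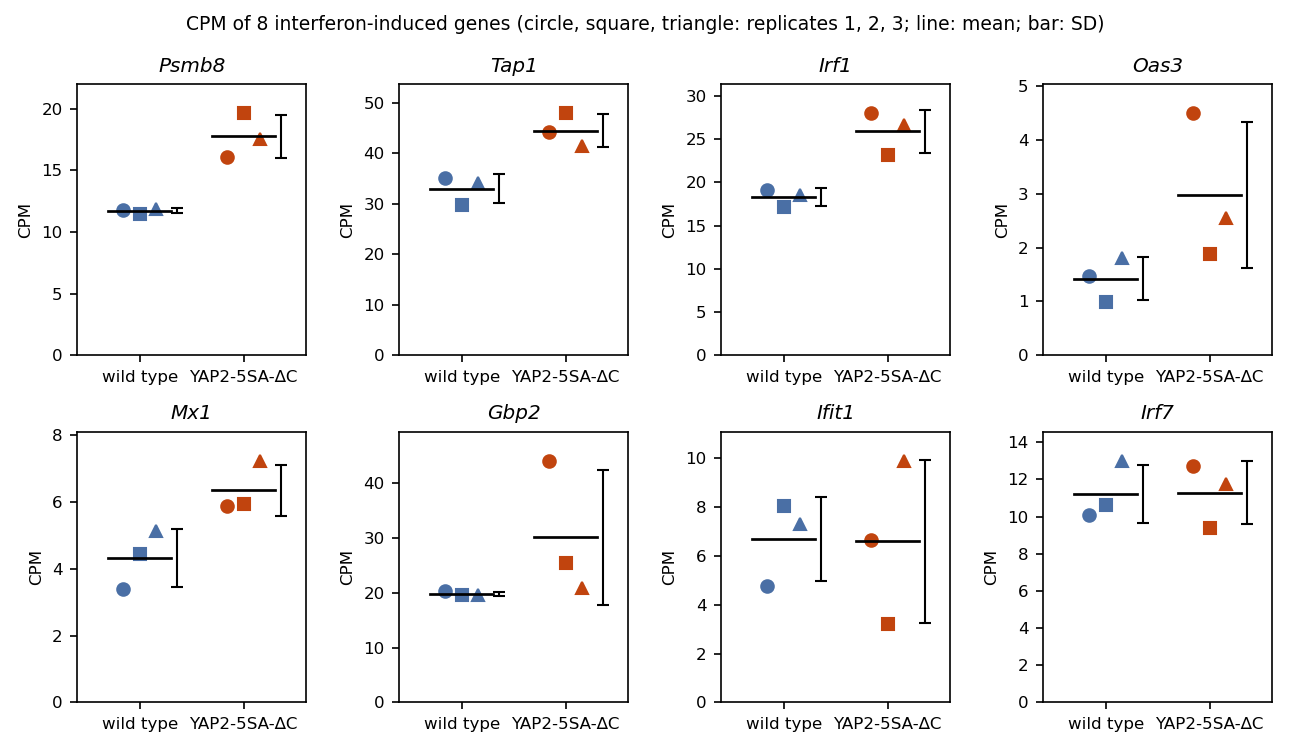
TMM-scaled CPM (y axis, from 0) of *Psmb8*, *Tap1*, *Irf1*, *Oas3*, *Mx1*, *Gbp2*, *Ifit1* and *Irf7* in wild type and transgenic skin, with circles, squares and triangles for replicates 1, 2 and 3, lines for means and bars for the SD (n = 3). The genotypes do not overlap for the first 6 genes and do for *Ifit1* and *Irf7*, and the *Gbp2* mean is raised by transgenic replicate 1.

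The GAS core was found in the window of *Psmb8* and in neither of those of *Psmb9* and *Tap1*, which share 275 bases (chr17:34187306-34187580). The 250 bases before the RefSeq start of *Psmb8*, the gene that passed both edgeR tests, are shown for their single GAS core, given in capitals. These bases lie after the GENCODE start of *Psmb8*, inside the gene span given above.
Psmb8 (chr17:34197945-34198194, + strand): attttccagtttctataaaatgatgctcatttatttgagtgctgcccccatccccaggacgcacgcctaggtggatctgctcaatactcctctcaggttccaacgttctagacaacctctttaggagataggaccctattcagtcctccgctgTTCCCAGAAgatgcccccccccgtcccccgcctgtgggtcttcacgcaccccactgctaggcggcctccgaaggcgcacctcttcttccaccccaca

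Of the regulators and modifiers, *Irf1* alone passed a test. It encodes a transcription factor that is itself induced by interferon gamma and drives, among others, antigen processing genes. *Irf1* (ENSMUSG00000018899, chr11:53770014-53778374, + strand) had 19.1, 17.1 and 18.5 CPM in wild type and 28.0, 23.1 and 26.7 CPM in transgenic replicates 1, 2 and 3, with the lowest transgenic value above the highest wild type value. Its log2 fold change was 0.51 (SE 0.10), and its edgeR FDR was 0.0505 with quasi-likelihood, just above the threshold, and 0.0194 with the likelihood ratio. Exonic bases of *Irf1* are shared with Gm17334 on the opposite strand.

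The 250 bases before the first annotated start of *Irf1* are shown for the GAS core in capitals, since *Irf1* is a known target of interferon gamma.
Irf1 (chr11:53769764-53770013, + strand): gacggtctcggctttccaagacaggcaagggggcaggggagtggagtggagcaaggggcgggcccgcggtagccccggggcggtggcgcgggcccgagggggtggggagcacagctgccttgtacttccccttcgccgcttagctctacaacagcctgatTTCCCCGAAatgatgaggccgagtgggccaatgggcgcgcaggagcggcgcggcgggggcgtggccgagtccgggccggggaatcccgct

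The other regulators overlapped between the genotypes. *Irf7*, the transcription factor that amplifies type I interferon production, had 10.1, 10.6 and 13.0 CPM in wild type and 12.7, 9.39 and 11.8 CPM in transgenic skin, and its highest value was in wild type replicate 3 (log2 fold change 0.01, SE 0.15, quasi-likelihood FDR 0.965 in edgeR). *Irf9*, the DNA-binding partner of STAT2, had 29.8, 26.9 and 28.7 CPM in wild type and 27.8, 37.3 and 31.6 CPM in transgenic skin, with transgenic replicate 1 within the wild type range (log2 fold change 0.18, SE 0.11, quasi-likelihood FDR 0.355). Exonic bases are shared by *Irf7* with *Phrf1* and by *Irf9* with *Rnf31*.

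*Isg15*, a ubiquitin-like modifier and a common marker of the response, had 1.15, 1.83 and 1.42 CPM in wild type and 2.05, 1.47 and 2.24 CPM in transgenic skin. Transgenic replicates 1 and 3 were above all wild type libraries and replicate 2 was not (log2 fold change 0.38, SE 0.26, quasi-likelihood FDR 0.390 in edgeR). *Usp18*, the protease that removes ISG15 and dampens the receptor, averaged 2.80 ± 1.05 CPM in wild type and 2.68 ± 0.538 CPM in transgenic skin (SD, n = 3 each), with a log2 fold change of -0.05 (SE 0.32). The *Isg15* window held 3 overlapping ISRE cores, shown in capitals with 15 bases on either side because no other window held as many.
Isg15 (chr4:156200860-156200911, - strand): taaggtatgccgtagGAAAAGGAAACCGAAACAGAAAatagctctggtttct

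Among the RNA sensors, *Trim25*, a ubiquitin ligase that activates the sensor RIG-I, passed the likelihood-ratio test. It had 28.2, 23.7 and 27.9 CPM in wild type and 32.2, 48.2 and 34.5 CPM in transgenic skin (log2 fold change 0.53, SE 0.16, quasi-likelihood FDR 0.101, likelihood-ratio FDR 0.0492, both by edgeR). Replicate 2 was the highest transgenic library for this gene, and without it the log2 fold change was 0.35 and the call was lost (likelihood-ratio FDR 0.163). Of the 6 libraries, only transgenic replicate 1 could be left out without losing this call. *Ifih1*, which encodes the double-stranded RNA sensor MDA5, had 28.6, 23.8 and 30.1 CPM in wild type and 33.8, 33.6 and 34.3 CPM in transgenic skin, where the values were nearly equal and lay above wild type (log2 fold change 0.30, SE 0.10, quasi-likelihood FDR 0.109).

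The RIG-I gene itself, *Ddx58*, averaged 24.4 ± 1.38 CPM in wild type and 25.8 ± 2.87 CPM in transgenic skin (log2 fold change 0.08, SE 0.10), and *Dhx58*, which encodes the related regulator LGP2, had 3.29 ± 0.657 and 4.55 ± 1.38 CPM (log2 fold change 0.45, SE 0.26; SD, n = 3 each). Both overlapped between the genotypes. *Dhx58* shares exonic bases with Dhx58os on the opposite strand.

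The 12 antiviral effectors had a median log2 fold change of 0.38, and 11 of them were above 0. In the quasi-likelihood test 0 of them passed (3 were higher at an unadjusted *P* below 0.05, beside 13.3% of all tested genes), and in the likelihood-ratio test 1 did, *Oas3* (8.33%, beside 5.52%). Transgenic replicate 3 was the highest of its group for 8 of the 12 and replicate 2 the lowest for 10 of the 12, and the median log2 level over the wild type mean was 0.43, 0.15 and 0.61 in transgenic replicates 1, 2 and 3. In wild type it was -0.34, 0.17 and 0.10, and the lowest was replicate 1.

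The OAS enzymes make short oligoadenylates that switch on RNase L. *Oas3* had 1.48, 0.992 and 1.80 CPM in wild type and 4.50, 1.88 and 2.55 CPM in transgenic skin. Transgenic replicate 1 was more than any other library, and replicate 2 was only just above wild type replicate 3. The log2 fold change of 1.10 was the largest of the 37, with an SE of 0.38, and its edgeR FDR was 0.130 with quasi-likelihood and 0.00817 with the likelihood ratio. Without transgenic replicate 1 the log2 fold change was 0.68 and the likelihood-ratio call was lost, as it was without wild type replicate 2.

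*Oas1a* had 1.87, 3.03 and 2.75 CPM in wild type and 3.66, 3.35 and 4.05 CPM in transgenic skin without overlap (log2 fold change 0.54, SE 0.21, quasi-likelihood FDR 0.162 by edgeR). *Oas2* had 5.21, 6.95 and 9.21 CPM in wild type and 10.9, 9.22 and 8.10 CPM in transgenic skin, and overlapped because wild type replicate 3 was above transgenic replicate 3 (log2 fold change 0.41, SE 0.22, quasi-likelihood FDR 0.272). The OAS-like genes *Oasl1* and *Oasl2* had log2 fold changes of 0.34 and 0.47 (SEs 0.35 and 0.23) and both overlapped. OAS genes have close paralogs, so reads that map to more than one of them were not counted.

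The MX proteins are dynamin-like GTPases that trap viral nucleoproteins. GENCODE M21 annotates *Mx2* as a polymorphic pseudogene. *Mx1* had 3.40, 4.44 and 5.13 CPM in wild type and 5.88, 5.93 and 7.22 CPM in transgenic skin, all 3 above the wild type libraries (log2 fold change 0.56, SE 0.18, quasi-likelihood FDR 0.110, likelihood-ratio FDR 0.0586). *Mx2* averaged 1.33 ± 0.300 CPM in wild type and 2.14 ± 0.854 CPM in transgenic skin (SD, n = 3 each), and its log2 fold change of 0.66 (SE 0.33) rested on transgenic replicate 3. Without that library it was 0.30.

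The IFIT proteins bind foreign RNA ends, and *Ifit1* is among the most strongly induced type I interferon genes in many cells. Here *Ifit1* had 4.77, 8.04 and 7.31 CPM in wild type and 6.66, 3.23 and 9.90 CPM in transgenic skin. The highest and the lowest value of all 6 libraries were both from transgenic skin, in replicates 3 and 2 (log2 fold change -0.02, SE 0.39, quasi-likelihood FDR 0.974). *Ifit3* had the same order of the transgenic libraries and a log2 fold change of 0.05 (SE 0.27), whereas *Ifit2* did not overlap and had 0.25 (SE 0.11, quasi-likelihood FDR 0.210). *Ifit3* has a near-identical neighbour, Ifit3b, which makes its count uncertain.

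*Rsad2*, which encodes viperin, had 4.79 ± 2.08 and 5.74 ± 2.29 CPM (SD, n = 3 each; log2 fold change 0.26, SE 0.40). *Bst2*, which encodes tetherin, the protein that holds budding virus at the cell surface, had 5.98, 5.69 and 6.27 CPM in wild type and 7.05, 4.70 and 6.42 CPM in transgenic skin, with its highest value in replicate 1 and its lowest in replicate 2 of the transgenic group (log2 fold change 0.02, SE 0.17, quasi-likelihood FDR 0.947).

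Promoter stretches of 3 antiviral effectors are shown, with ISRE and GAS cores in capitals and 15 bases on either side, because these genes have the core and yet differ in their values, with *Oas3* the largest and *Ifit1* and *Bst2* among the smallest changes.
Oas3 (chr5:120777710-120777749, - strand): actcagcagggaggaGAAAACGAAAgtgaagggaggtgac
Ifit1 (chr19:34640770-34640828, + strand): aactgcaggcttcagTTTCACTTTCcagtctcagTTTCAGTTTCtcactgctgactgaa
Bst2 (chr8:71537572-71537623, - strand): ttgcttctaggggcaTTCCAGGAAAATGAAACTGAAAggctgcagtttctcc
*Ifit1* held 2 separate ISRE cores, and in *Bst2* a GAS core and 2 ISRE cores overlapped.

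The interferon-induced GTPases of the GBP and IRG families disrupt the membranes around intracellular pathogens, and many of them answer interferon gamma more than type I interferon. The 7 tested members all had a log2 fold change above 0, from 0.13 in *Gbp3* to 0.60 in *Gbp2*, with a median of 0.34. None passed the quasi-likelihood or the likelihood-ratio test of edgeR, and 1 (*Irgm1*) was higher at an unadjusted *P* below 0.05 in the first, beside 13.3% of all tested genes. All 7 were highest in transgenic replicate 1, where the median log2 level over the wild type mean was 0.65, against 0.12 and 0.19 in replicates 2 and 3.

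*Gbp2* had 20.2, 19.5 and 19.6 CPM in wild type and 44.0, 25.3 and 20.8 CPM in transgenic skin. The wild type values were almost equal, and transgenic replicate 1 was far above the rest of its group (log2 fold change 0.60, SE 0.26, quasi-likelihood FDR 0.193, likelihood-ratio FDR 0.100). Without that library the log2 fold change was 0.24. *Gbp7* had 23.5, 29.3 and 27.6 CPM in wild type and 35.3, 29.6 and 31.1 CPM in transgenic skin, its lowest transgenic value just above the highest wild type value (log2 fold change 0.26, SE 0.11, quasi-likelihood FDR 0.191).

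*Irgm1*, a regulator of the IRG family and of autophagy, had 9.33, 10.8 and 9.21 CPM in wild type and 15.4, 10.6 and 12.9 CPM in transgenic skin, where replicate 2 was below wild type replicate 2 (log2 fold change 0.41, SE 0.15, quasi-likelihood FDR 0.147). *Igtp* and *Irgm2* had log2 fold changes of 0.59 and 0.24 (SEs 0.26 and 0.11). They share exonic bases on the same strand, and the counts of both are uncertain for this reason. *Iigp1* averaged 14.3 ± 1.81 CPM in wild type and 18.1 ± 7.18 CPM in transgenic skin (SD, n = 3 each), with a log2 fold change of 0.34 (SE 0.26), which without transgenic replicate 1 was -0.01.

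All 6 GTPase genes with a promoter window held the ISRE core, all of them before the RefSeq start, and *Gbp7*, *Igtp* and *Irgm2* also held the GAS core. The cores of *Gbp2*, *Irgm1* and *Irgm2* lie inside the GENCODE spans of these genes. The 250 bases before the RefSeq start of *Gbp2*, the member with the largest change in this role, are shown first, followed by the stretch with 15 bases on either side of the cores for 4 others.
Gbp2 (chr3:142620413-142620662, + strand): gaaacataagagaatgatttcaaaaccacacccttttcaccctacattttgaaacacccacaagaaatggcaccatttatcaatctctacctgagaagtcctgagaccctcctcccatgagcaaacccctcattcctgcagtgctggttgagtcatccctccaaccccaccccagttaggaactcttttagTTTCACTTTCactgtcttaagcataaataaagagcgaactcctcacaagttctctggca
Gbp3 (chr3:142559984-142560029, + strand): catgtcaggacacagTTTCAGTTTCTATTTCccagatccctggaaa
Igtp (chr11:58199496-58199546, + strand): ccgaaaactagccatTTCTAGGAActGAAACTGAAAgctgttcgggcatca
Irgm1 (chr11:48871420-48871465, - strand): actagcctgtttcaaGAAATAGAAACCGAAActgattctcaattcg
Irgm2 (chr11:58214887-58214937, + strand): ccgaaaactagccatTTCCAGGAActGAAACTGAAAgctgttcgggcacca
The 51 bases shown for *Igtp* and *Irgm2* differ at 2 positions (T19C and T49C, *Igtp* base first, counted from 1 at the 5′ end), with the same order of a GAS and an ISRE core.

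Of the 6 other interferon-induced genes, *Parp14*, an ADP-ribosyltransferase, came closest to the threshold of the edgeR tests and passed that of DESeq2 (Wald test, adjusted p-value 0.00638). It had 36.6, 43.1 and 39.9 CPM in wild type and 50.8, 50.6 and 57.9 CPM in transgenic skin without overlap (log2 fold change 0.41, SE 0.09, edgeR quasi-likelihood FDR 0.0576 and likelihood-ratio FDR 0.0587). The other 5, *Rtp4*, *Ifi44*, *Ifi35*, *Xaf1* and *Ifi27*, overlapped and had log2 fold changes of 0.32, 0.23, 0.18, 0.15 and 0.02 (SEs 0.16, 0.36, 0.13, 0.16 and 0.17). *Ifi35* shares exonic bases with Gm11626.

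Per length of exons *Ifi27* was the highest member, at 21.1 RPKM (CPM per kilobase of exon) in wild type and 21.3 RPKM in transgenic skin, followed in transgenic skin by *Gbp2* (11.9 RPKM) and *Tap1* (8.12 RPKM). *Oas3* was the lowest in wild type (0.202 RPKM), with 0.421 RPKM in transgenic skin, so the member with the largest fold change was among the least abundant. *Psmb8* had 3.47 and 5.25 RPKM.

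The rest of the pathway was read from 6 lists of 83 genes, of which 73 had a row and 69 were tested. In the quasi-likelihood test 6 of the 69 (8.7%) were higher and 0 lower, beside 1.44% of all tested genes called higher, and in the likelihood-ratio test 16 (23.2%) were higher and 0 lower, beside 5.52%. The genotypes did not overlap for 47 of the 69 (68.1%) in the higher and 1 in the lower direction, beside 15.5% and 18.2% of all tested genes. Of the 6 calls of the quasi-likelihood test, 0 were left without replicate 1, 2 or 3 of wild type or without transgenic replicate 3, there were 3 calls without transgenic replicate 1 and 14 without transgenic replicate 2. Over all tested genes 0.822% were then called higher without replicate 1 of wild type, 0% without replicate 2 or 3 of wild type or transgenic replicate 3, 0.489% without transgenic replicate 1 and 2.72% without transgenic replicate 2. The 16 calls of the likelihood-ratio test became 13, 3 and 6 without replicates 1, 2 and 3 of wild type and 10, 22 and 9 without transgenic replicates 1, 2 and 3, beside 5.64%, 2.26%, 3.01%, 4.96%, 4.71% and 4.68% of all tested genes in the same order. Of the 12 interferon genes listed, 3 had a row and 0 were tested. *Ifng* had 1, 1 and 0 counts in wild type and 3, 0 and 0 counts in transgenic replicates 1, 2 and 3. *Ifnk*, the keratinocyte interferon, had 0 counts in each wild type library and 1, 0 and 2 counts in transgenic skin. *Ifna2* had 0 counts in each wild type library and 0, 1 and 1 in transgenic skin, and *Ifnb1* had no row and was not analysed here. At this depth no difference in interferon transcripts was detectable.

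The 6 receptor genes had log2 fold changes from 0.10 to 0.31 and 0 of them passed either edgeR test (4 were higher at an unadjusted *P* below 0.05 in the quasi-likelihood test, beside 13.3% of all tested genes). *Ifnar1* had 49.1 ± 2.30 and 55.8 ± 1.07 CPM and *Ifnar2* 10.8 ± 2.14 and 11.9 ± 0.781 CPM in wild type and transgenic skin (log2 fold changes 0.18 and 0.15). *Ifngr1* and *Ifngr2* had log2 fold changes of 0.31 and 0.31 (SEs 0.11 and 0.07), and the second did not overlap.

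Among the signal transducers and inhibitors, *Stat2* had 22.1, 20.7 and 19.8 CPM in wild type and 24.1, 31.8 and 25.7 CPM in transgenic skin, without overlap (log2 fold change 0.38, SE 0.12, quasi-likelihood FDR 0.101 in edgeR). The phosphatase gene *Ptpn6* passed both tests (log2 fold change 0.48, FDR 0.0442 with quasi-likelihood and 0.0243 with the likelihood ratio), and the inhibitor *Socs3* passed the likelihood-ratio test (log2 fold change 0.52, FDR 0.0218). *Ptpn6* is also a gene of blood cells in general.

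Of 16 genes of nucleic acid sensing and induction, 0 passed the quasi-likelihood test (10 were higher at an unadjusted *P* below 0.05, beside 13.3% of all tested genes), and *Tlr9*, *Irf8* and *Tmem173*, which encodes STING, passed the likelihood-ratio test with log2 fold changes of 1.01, 0.68 and 0.49 (SEs 0.25, 0.17 and 0.12). Both *Tlr9* and *Irf8* are known from myeloid, dendritic and B cells. Among 28 tested further interferon-induced genes 3 passed the quasi-likelihood and 6 the likelihood-ratio test, beside 1.44% and 5.52% of all tested genes. *Ifitm3*, *Samhd1* and *Dtx3l* were the 3, with log2 fold changes of 0.49, 0.51 and 0.40 and quasi-likelihood FDR values of 0.0346, 0.0468 and 0.0456. *Dtx3l* did not pass the likelihood-ratio test (edgeR FDR 0.0643). The 6 of that test were *Ifitm3*, *Samhd1*, *Cxcl10* (log2 fold change 1.35), *Ifitm1* (1.18), *Ifi204* (0.48) and *Ly6e* (0.42). *Cxcl10*, a chemokine for T cells, had 1.04, 1.46 and 0.855 CPM in wild type and 3.77, 1.47 and 3.55 CPM in transgenic skin, where replicate 2 was almost at the highest wild type value.

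In the MHC class I list 10 of 10 genes had a log2 fold change above 0 and 9 of 10 were higher without overlap, beside 47.6% and 15.5% of all tested genes. *Tap2*, the partner of *Tap1*, passed both edgeR tests (log2 fold change 0.47, SE 0.09, FDR 0.0485 with quasi-likelihood and 0.0310 with the likelihood ratio). *B2m*, *H2-K1*, *H2-D1* and the transactivator *Nlrc5* passed the likelihood-ratio test, with log2 fold changes of 0.53, 0.57, 0.51 and 0.66. *B2m*, the light chain of every class I molecule, had 415, 399 and 453 CPM in wild type and 537, 686 and 602 CPM in transgenic skin, and there replicate 2 was the highest library, as it was for *Psmb8* and *Tap1*. The H2 genes have near-identical relatives, so their counts are uncertain. Exonic bases are shared by *Dtx3l* with *Parp9*, by *Cxcl10* with *Art3*, by *Tap2* with Gm20496 and by *Nlrc5* with 9330175E14Rik.

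**Figure D4:**
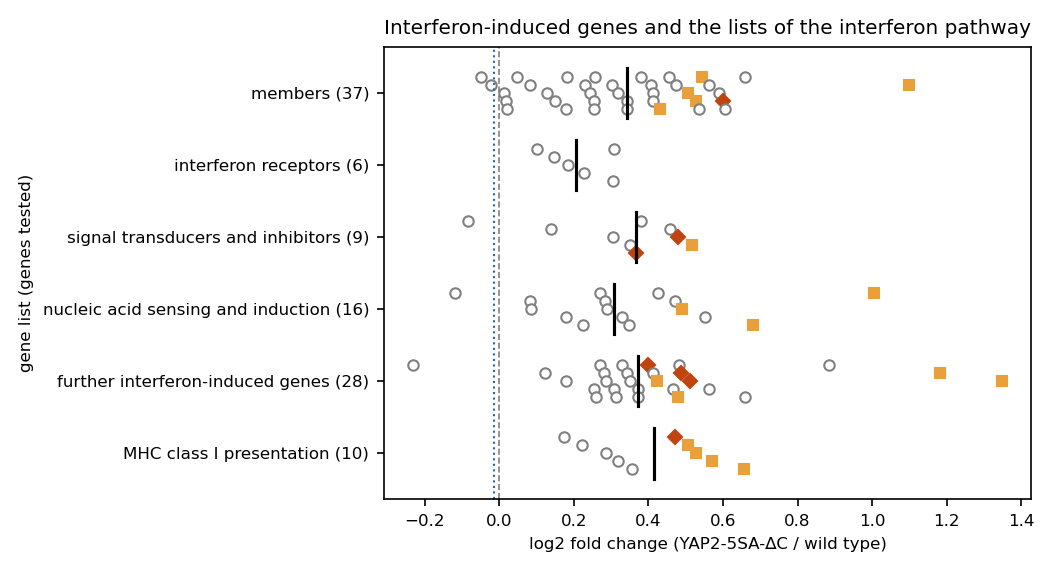
Log2 fold change (x axis, YAP2-5SA-∆C over wild type) of each tested gene in the member list and 5 lists of the interferon pathway (rows, with the number of genes tested), with red diamonds for a quasi-likelihood FDR (edgeR) below 0.05, orange squares for edgeR's likelihood-ratio test alone, open circles for neither, black lines for list medians and a dotted line for the median of all tested genes. The medians run from 0.21 in the receptors to 0.41 in the MHC class I list, all right of the dotted line at -0.01.

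Macrophage markers were also higher in transgenic skin. For reading the counts of markers, 15.5% of all tested genes were higher without overlap, 1.44% were called higher by the quasi-likelihood test and 5.52% by the likelihood-ratio test, which called 4.87% lower. The 9 macrophage markers were all higher without overlap, 2 of them in the quasi-likelihood and 4 in the likelihood-ratio test, and their summed level was 534 to 654 CPM in wild type and 774 to 867 CPM in transgenic skin. Of 9 T and NK cell markers 8 had a row and 4 were tested, none was called by either edgeR test, and the sum was 8.41 to 10.7 against 10.1 to 14.4 CPM. Of the 7 dendritic and Langerhans cell markers 1 passed the quasi-likelihood and 2 the likelihood-ratio test as higher, *Itgax* (log2 fold change 0.82) in both and *Cd207* (0.82) in the second. Their sum, 123 to 143 CPM in wild type and 139 to 148 CPM in transgenic skin, was mostly *Epcam* (102 to 123 CPM over the 6 libraries, log2 fold change 0.01), which epithelial cells also express. Of 5 tested mast cell markers 4 were higher in the likelihood-ratio test, *Cpa3*, *Mcpt4*, *Tpsb2* and *Cma1*, the last also with quasi-likelihood, while *Kit* had a log2 fold change of -0.20, and the 6 markers summed to 154 to 173 against 196 to 248 CPM. Of 4 tested neutrophil markers *Csf3r* (log2 fold change 1.53) and *Mmp9* (1.31) were higher in the likelihood-ratio test and *Mmp9* also with quasi-likelihood, and the 5 markers with a row summed to 13.9 to 48.3 against 29.8 to 81.0 CPM. Of 6 basal keratinocyte markers 1 was higher in the quasi-likelihood and 2 in the likelihood-ratio test. Their sum was 3392 to 4114 CPM in wild type and 5607 to 7156 CPM in transgenic skin. Quasi-likelihood called 0 of the 8 hair shaft and inner root sheath markers lower (8 at an unadjusted *P* below 0.05). For these markers the likelihood-ratio test called 8 lower, DESeq2 2 and voom 0. All 8 were lower without overlap, beside 18.2% of all tested genes. Of 6 suprabasal keratinocyte markers the likelihood-ratio test called 1 higher and the quasi-likelihood test 0 (1 at an unadjusted *P* below 0.05), and their sum was 6441 to 7861 against 7728 to 13810 CPM, highest in transgenic replicate 2. Of the 5 fibroblast, 5 endothelial, 5 adipocyte and 5 skeletal muscle markers 0 passed either edgeR test (2, 1, 0 and 0 at an unadjusted *P* below 0.05 with quasi-likelihood), and 3, 2, 0 and 0 were higher without overlap. Their median log2 fold changes were 0.25, 0.17, 0.04 and -1.12, and all 5 skeletal muscle markers were below 0, with sums of 1094 to 5860 CPM in wild type and 985 to 2775 CPM in transgenic skin. The part of these cell types in the levels of the interferon-induced genes was not tested.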

How the data were processed

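RNA-Seq of dorsal neck skin was analysed from 3 wild type and 3 YAP2-5SA-∆C female mice at postnatal day 33, with groups and replicate numbers taken from the sample titles. The values used are raw counts per Ensembl gene as deposited: the authors aligned read pairs to the mouse build GRCm38 (TopHat2 2.0.12 calling Bowtie2 2.1.0, per the submitters' processing notes) and let HTSeq-count assign the uniquely mapping ones. Which annotation release was used and whether strand was used in counting is not given in the sources used here, so overlapping and antisense genes are uncertain, and reads that fit near-identical genes are missing. The labels name a stranded total RNA kit, while the study's methods describe mRNA libraries.

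A gene was kept if 3 or more libraries reached 1 CPM, and TMM factors were used. The main result comes from quasi-likelihood in edgeR (glmQLFit and glmQLFTest, bias-adjusted form) with genotype as the only term. The edgeR likelihood-ratio test with common and tagwise dispersions and limma voom, both with the functions named in the study's methods, and DESeq2 were run beside it (R 4.3.3, edgeR 4.0.16, limma 3.58.1, DESeq2 1.42.0). The number of genes tested here differs from that in the study. Some FDR values, such as that of *Krt14* in the likelihood-ratio test, also differ from those it reports. Benjamini-Hochberg adjustment of each p-value ran over all tested genes, with a threshold of 0.05, and with 3 mice against 3 they measure the spread between these mice. CPM and RPKM (CPM per kilobase of merged exons in GENCODE M21) were computed here and are descriptions. The edgeR tests and voom, but not DESeq2, were tested on simulated data first. No limit on false calls was set there for the likelihood-ratio test.

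Values in every library are given for members with an FDR below 0.05 in either edgeR test, for the 12 members with the lowest quasi-likelihood p-value, and always for *Isg15*, *Irf7*, *Irf9*, *Irf1*, *Ifit1*, *Oas2*, *Mx1*, *Bst2*, *Gbp2*, *Irgm1*, *Psmb8* and *Tap1*. Pathway genes are named where either test passed, with *Stat2* and the receptor and ligand genes of the type I and gamma interferons always considered, and 1 gene that the lists count is not reported here. The members and lists were chosen with earlier results of these data known. The libraries of a genotype differed by more than sampling noise, and each was counted as 1 sample. Replicate numbers were not used as pairs. Alternatives changed the scaling (RLE, upper quartile), the count filter, the test or the terms (replicate block), or left out 1 library at a time.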

Additional observations from a re-analysis of the deposited data

How the results depend on the processing

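The median log2 fold change of the 37 interferon-induced genes stayed between 0.23 and 0.45 under all alternatives, and 0 of the 37 were called lower in any of them. Their number called by edgeR's quasi-likelihood test (1) was 2 with RLE scaling, 3 with upper-quartile scaling, 2 with no count filter, 6 with the likelihood-ratio test, 5 with DESeq2 and 0 to 3 when each library was left out. The number called by the likelihood-ratio test (6) was 0 to 12 and that of genes without overlap (13) was 14 to 24 when each library was left out and the scaling refitted, or 13 to 24 on the scaling of all 6 libraries. For the 69 pathway genes (6 called) it was 12 with upper-quartile scaling, 11 with no count filter, 16 with the likelihood-ratio test, 26 with DESeq2 and 0 to 14 with a library left out, and the 16 of the likelihood-ratio test were 3 to 22 with a library left out and 4 with the replicate block. Over all tested genes (288) it was 497 with no count filter, 1568 with the likelihood-ratio test, 1583 with DESeq2 and 0 to 816 with a library left out. The 0 came from leaving out replicate 2 or 3 of wild type or replicate 3 of the transgenic group, and 2725, 2844 and 3692 genes then had p-values below 0.05 before adjustment. With the replicate number as a block the quasi-likelihood test called 0 members (9 at an unadjusted p-value below 0.05), 0 pathway genes and 0 genes in all (2949 at an unadjusted p-value below 0.05), and the likelihood-ratio test called 2 members, *Oas3* and *Psmb8*. The libraries with the same number deviated from their group means with correlations of -0.34, -0.24 and -0.06 across genes, so the numbers were not taken as pairs. The direction was not stable for 9 members, among them *Iigp1*, *Rsad2* and *Ifi44* with log2 fold changes of 0.34, 0.26 and 0.23 over all libraries. Their log2 fold changes with a library left out ran -0.063 to 0.15 for *Irf7*, -0.34 to 0.14 for *Usp18*, -0.43 to 0.32 for *Ifit1*, -0.20 to 0.30 for *Ifit3*, -0.069 to 0.64 for *Rsad2*, -0.084 to 0.19 for *Bst2*, -0.0053 to 0.55 for *Iigp1*, -0.19 to 0.17 for *Ifi27* and -0.056 to 0.56 for *Ifi44*. It also reversed for *Usp18* with voom (0.033), for *Ifit1* with upper-quartile scaling (0.00010) and for *Ifi27* with the replicate block (-0.0071) and with voom (-0.016). The cause was not tested. The RLE and upper-quartile scalings moved the median of all genes by less than 0.1 on the log2 scale. Counts of under about 2 CPM, as in *Isg15*, *Oas3*, *Oasl1*, *Mx2* and *Ifi44*, limit the precision of these members.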
